A study of Mus musculus with 6 samples.

Results

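The genes examined are 50 genes of mitosis and chromosome segregation, taken by symbol from a list of mitotic regulators, motors and chromosome proteins, and all 50 were present among the 23420 genes of the authors' table. The tissue was humeral bone of 6-day-old C57BL/6 mice, of which poly(A) RNA was sequenced in 3 libraries of the genotype Control and 3 of the genotype Tfam cKO. The libraries are called Control 1 to Control 3 and Tfam cKO 1 to Tfam cKO 3 after their replicate numbers. Tfam encodes the mitochondrial transcription factor A, and in the cKO it was deleted with Prx1-Cre, a driver active in the mesenchyme of the limb bud, from which the bone, cartilage and connective tissue of the limb arise. Blood, vascular and osteoclast lineages lie outside that driver's range, so a whole humerus holds cells with and without the deletion. The marrow cavity had been flushed with PBS, per the labels' protocols. The labels do not say which alleles the Control mice carried, nor whether the libraries stand for different animals. If they do not, the p-values measure a spread between libraries that may be technical.

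Tfam was at 61.3, 72.1 and 78.6 normalized reads in the Control libraries and 28.1, 46.1 and 47.6 in the Tfam cKO libraries (libraries 1, 2 and 3 in that order, as everywhere below). All Tfam cKO values lay below the Control values (log2 fold change -0.81 ± 0.21 SE, limma adjusted p = 0.0246), but the call did not hold without Control 1 (0.0503), Control 2 (0.0704), Control 3 (0.107) or Tfam cKO 1 (0.0748), nor with DESeq2 (0.0564). A normalized read is a read count divided by the size factor of its library. The libraries held 1441152 to 1714770 reads assigned to genes. Markers of the osteoblast, the bone-forming cell, summed to 86474 to 187501 normalized reads over 10 genes, and markers of blood-forming cells were also present in every library after the flush.

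Mitosis begins when the kinase Cdk1, bound to a cyclin of the A or B type, is switched on, and ends when the anaphase promoting complex marks cyclin B and securin for destruction. In between, condensin compacts the chromosomes, kinesin motors and microtubule binders build the spindle, and kinetochores attach each chromosome while a checkpoint delays anaphase until all are attached. Most of the genes are transcribed mainly in late S phase, G2 and mitosis, so in a whole tissue their mRNA is widely used as a measure of dividing cells. In the newborn long bone, dividing cells are found among chondrocytes of the growth plate, osteoblast precursors and blood-forming cells.

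Many promoters of this group are known to carry a cell cycle genes homology region (CHR), bound by MuvB complexes, together with CCAAT boxes, bound by NF-Y. The sequences below come from RefSeq (GRCm38.p6) and show where these letters lie at genes the results turn on, with Melk shown because it was the 1 gene of the 50 with a positive change. Each runs 5′ to 3′ from 150 bases before the annotated start to 20 bases from it, and capitals mark the CHR letters (TTTGAA or TTCGAA), the CCAAT letters and the E2F letters (TTTGGCGC or TTTCGCGC) on either strand.
Kif11 (chr19:37376232-37376401, plus strand): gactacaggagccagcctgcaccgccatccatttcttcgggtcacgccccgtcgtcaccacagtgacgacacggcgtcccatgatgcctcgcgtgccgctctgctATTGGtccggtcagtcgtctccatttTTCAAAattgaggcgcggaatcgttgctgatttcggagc
Ncapg (chr5:45669775-45669944, plus strand): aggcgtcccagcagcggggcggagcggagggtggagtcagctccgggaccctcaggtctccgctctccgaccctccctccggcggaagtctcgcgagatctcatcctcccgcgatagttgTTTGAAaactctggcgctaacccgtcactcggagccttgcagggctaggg
Top2a (chr11:99024170-99024339, minus strand): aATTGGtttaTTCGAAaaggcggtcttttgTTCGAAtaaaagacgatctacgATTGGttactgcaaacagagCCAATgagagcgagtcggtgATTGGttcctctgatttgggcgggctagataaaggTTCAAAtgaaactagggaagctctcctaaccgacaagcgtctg
Mki67 (chr7:135716360-135716529, minus strand): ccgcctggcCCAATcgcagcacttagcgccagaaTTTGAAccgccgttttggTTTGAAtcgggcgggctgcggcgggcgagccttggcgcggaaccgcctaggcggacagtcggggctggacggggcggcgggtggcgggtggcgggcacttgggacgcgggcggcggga
Ccnb1 (chr13:100786467-100786636, minus strand): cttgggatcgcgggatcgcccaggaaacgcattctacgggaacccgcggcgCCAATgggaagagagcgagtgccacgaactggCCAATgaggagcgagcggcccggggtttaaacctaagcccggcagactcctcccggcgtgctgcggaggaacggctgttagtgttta
Ccnb2 (chr9:70421535-70421704, minus strand): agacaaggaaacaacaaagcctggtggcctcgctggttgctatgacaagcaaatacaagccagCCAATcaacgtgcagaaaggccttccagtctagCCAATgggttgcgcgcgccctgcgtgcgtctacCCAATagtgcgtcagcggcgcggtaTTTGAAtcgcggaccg
Melk (chr4:44300767-44300936, plus strand): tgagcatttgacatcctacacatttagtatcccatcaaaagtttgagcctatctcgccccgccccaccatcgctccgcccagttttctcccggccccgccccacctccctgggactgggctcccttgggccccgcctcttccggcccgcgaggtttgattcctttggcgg

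Kif11 has a CHR on the opposite strand 19 bases before its start and a CCAAT box, also on the opposite strand, 45 bases before it, and Ccnb2 has CCAAT letters at 87, 54 and 21 bases before its start and CHR letters 5 bases after it. Ncapg has CHR letters 30 bases before the start, and Mki67 has them at 116 and 98 bases. Top2a has CHR letters at 140, 120 and 23 bases before the start and CCAAT letters at 149, 98, 78 and 58. Ccnb1 has CCAAT letters at 99 and 67 bases before its start and no CHR letters in the window, and Melk has none of the motifs searched. RefSeq windows of 250 bases before to 50 after the start were at hand for 43 of the 50 genes, all but Aurkb, Ccna2, Incenp, Kif20a, Pbk, Smc4 and Tpx2. CHR letters occurred in 34 of the 43 (79.1%), against 16.2% of 10586 tested genes and 19.2% of all 32851 windows. Within 50 bases of the start they occurred in 31 of the 43 (72.1%), against 4.18% of tested genes and 5.31% of all windows. CCAAT letters occurred in 32 (74.4%), against 42.6% of tested genes and 37.4% of all windows, and 23 (53.5%) had 2 or more, against 16% and 11.7%. The E2F letters were in 3 of the 43 windows (Cdk1, Kif15 and Ncapd2, or 6.98%), against 1.77% of tested genes and 0.813% of all windows. Letters of different motifs may share bases, and a match is not a measured binding site.

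Genes that fell in Tfam cKO bone and genes that did not pass the test held CHR letters close to the start at similar shares. CHR letters near the start were found in 16 of 23 genes that fell (69.6%) and in 15 of 20 that did not pass the test (75%). Anywhere in the window, CHR letters were in 82.6% and 75%, CCAAT letters in 82.6% and 65%, and both in 73.9% and 60%. Whether the 2 sets differ in these shares was not tested. For comparison, 2 of 31 DNA replication genes (6.45%) and 1 of 16 genes of the anaphase promoting complex (6.25%) held CHR letters within 50 bases of the start.

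**Figure D1:**
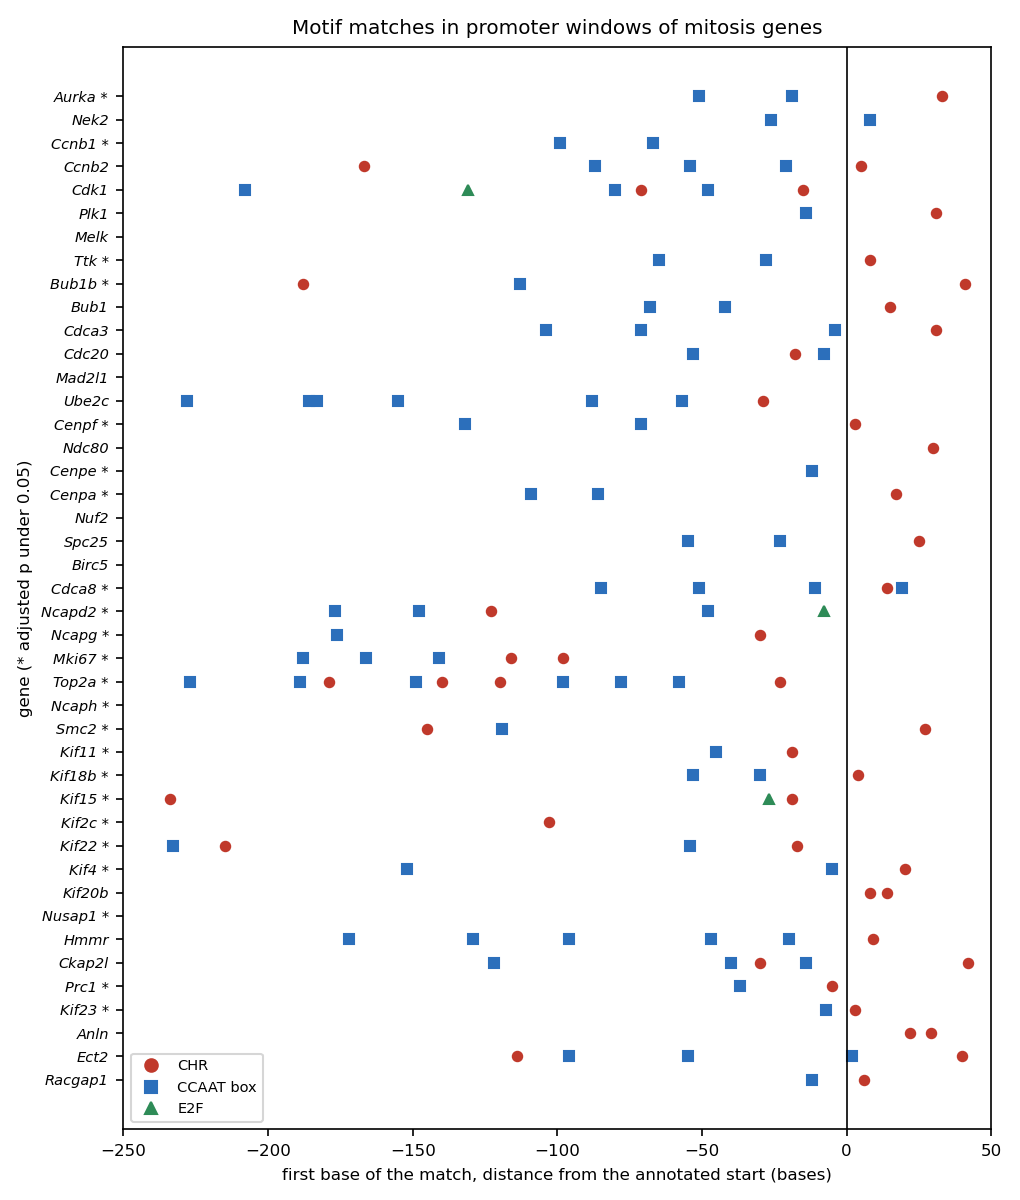
Position of motif letters in the promoter windows of 43 mitosis genes, in bases from the annotated start (line at 0); circles are CHR letters, squares CCAAT letters and triangles E2F letters, and a star marks genes with an adjusted p under 0.05. CHR letters lie within 50 bases of the start in 31 of the 43 genes, with CCAAT letters mostly before them.

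The mitosis genes were lower in Tfam cKO bone by a moderate amount that most of them shared. Of the 50, all of which were tested, 26 fell and 0 rose at a limma adjusted p under 0.05, while 6.01% of all 14438 tested genes fell and 6.42% rose. The median log2 fold change of the 50 was -0.53, against 0.01 over all tested genes, and 49 of 50 had a negative value, as did 49.3% of all tested genes. The 50 genes were chosen with earlier results of these data known, so these shares describe the list and are not independent support. All 50 were measured in the same libraries and are not separate observations. By group means, 8 genes were under 60% of the Control level, 33 between 60% and 80%, 8 between 80% and 100%, and Melk was above it. In limma 0 of the 50 were higher even at an unadjusted p under 0.05, and edgeR and DESeq2 likewise gave 0 at either level.

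Summed over the 50 genes, the Control libraries held 13970.0, 11168 and 11087 normalized reads and the Tfam cKO libraries 7234, 9335 and 7804. The groups did not overlap, and the Tfam cKO mean was 67.3% of the Control mean. Control 1 was the highest of the 3 Control libraries for 45 genes, and Tfam cKO 2 the highest of the 3 Tfam cKO libraries for 42. The lowest value of all 6 libraries was that of Tfam cKO 1 for 34 genes. In 34 genes all 3 Tfam cKO values lay below all 3 Control values, as was the case for 15.4% of all tested genes. A bulk library does not tell fewer cells of a type from less RNA per cell, and this holds for each fall below.

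**Figure D2:**
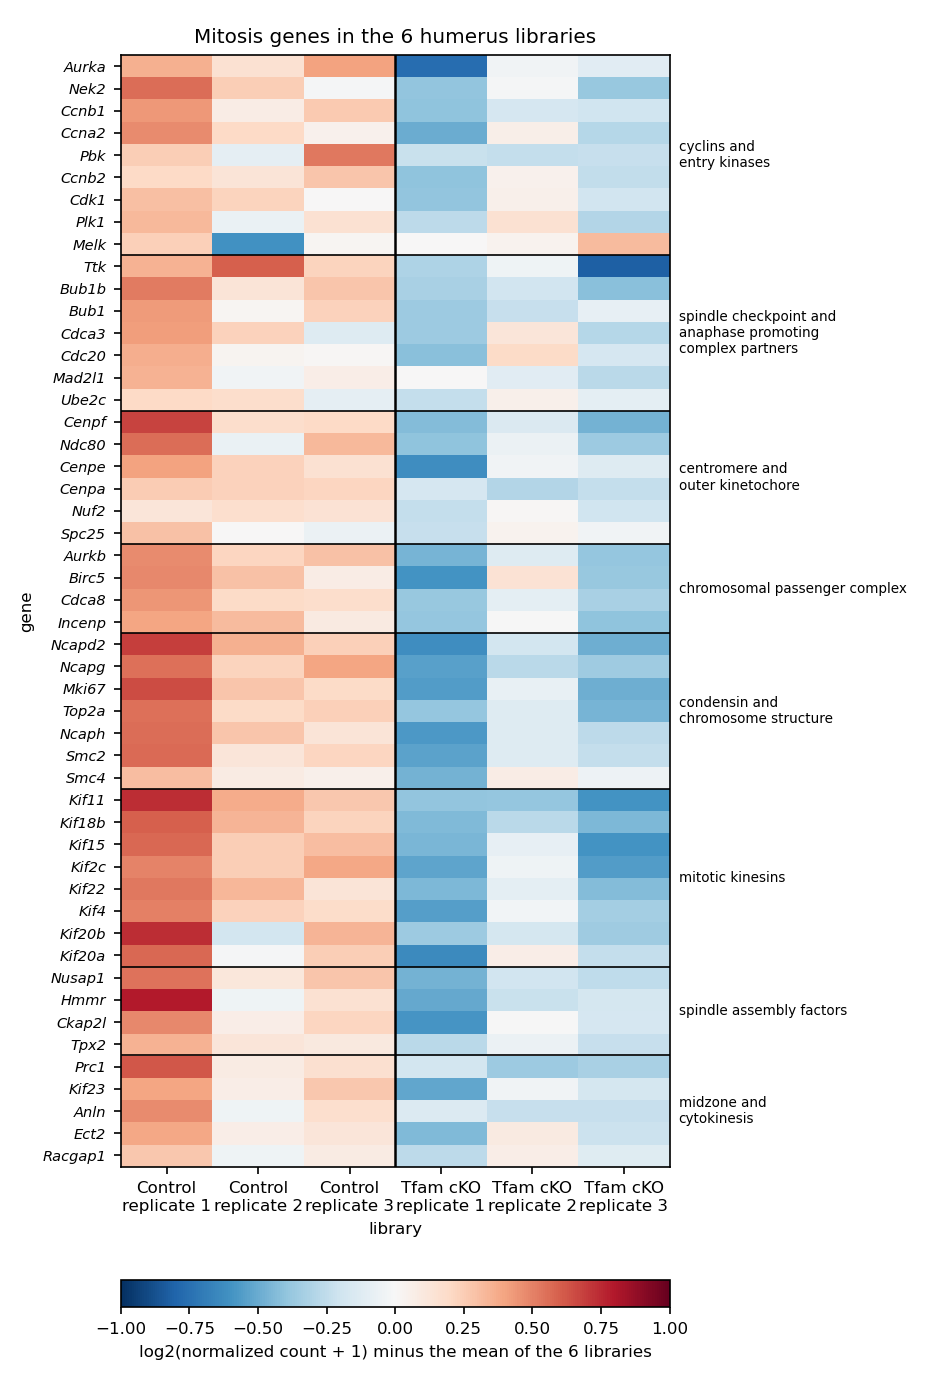
Each row is 1 of the 50 mitosis genes and each column 1 library; colour gives log2(normalized count + 1) minus the gene's mean over the 6 libraries, and genes are grouped by role. Control 1 is the highest Control library for 45 genes and Tfam cKO 1 the lowest of the 6 for 34.

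The number of falls depended on single libraries. edgeR gave 25 falls, all among the 26, where 5.76% of all genes fell, and DESeq2 gave 21, of which 20 were among the 26, where 3.71% fell. By the authors' deposited table, q-values put 21 of the 50 lower at q under 0.05, all among the 26, with 3.23% of all its genes lower. Without Control 1, 10 of the 26 falls held and no other gene passed, where 2.39% of all genes fell. These 10, which passed without any 1 of the 6 libraries, were Kif11, Kif15, Kif18b, Ncapd2, Ncapg, Top2a, Mki67, Cenpf, Bub1b and Aurkb. Without Tfam cKO 1, 15 genes fell (3.8% of all genes), and without Tfam cKO 3 also 15 (3.54%). The counts were 27 without Control 2 (4.71% of all genes), 19 without Control 3 (3.61%) and 32 without Tfam cKO 2 (6.71%). A robust limma fit gave 34 falls, where 6.96% of all genes fell.

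**Figure D3:**
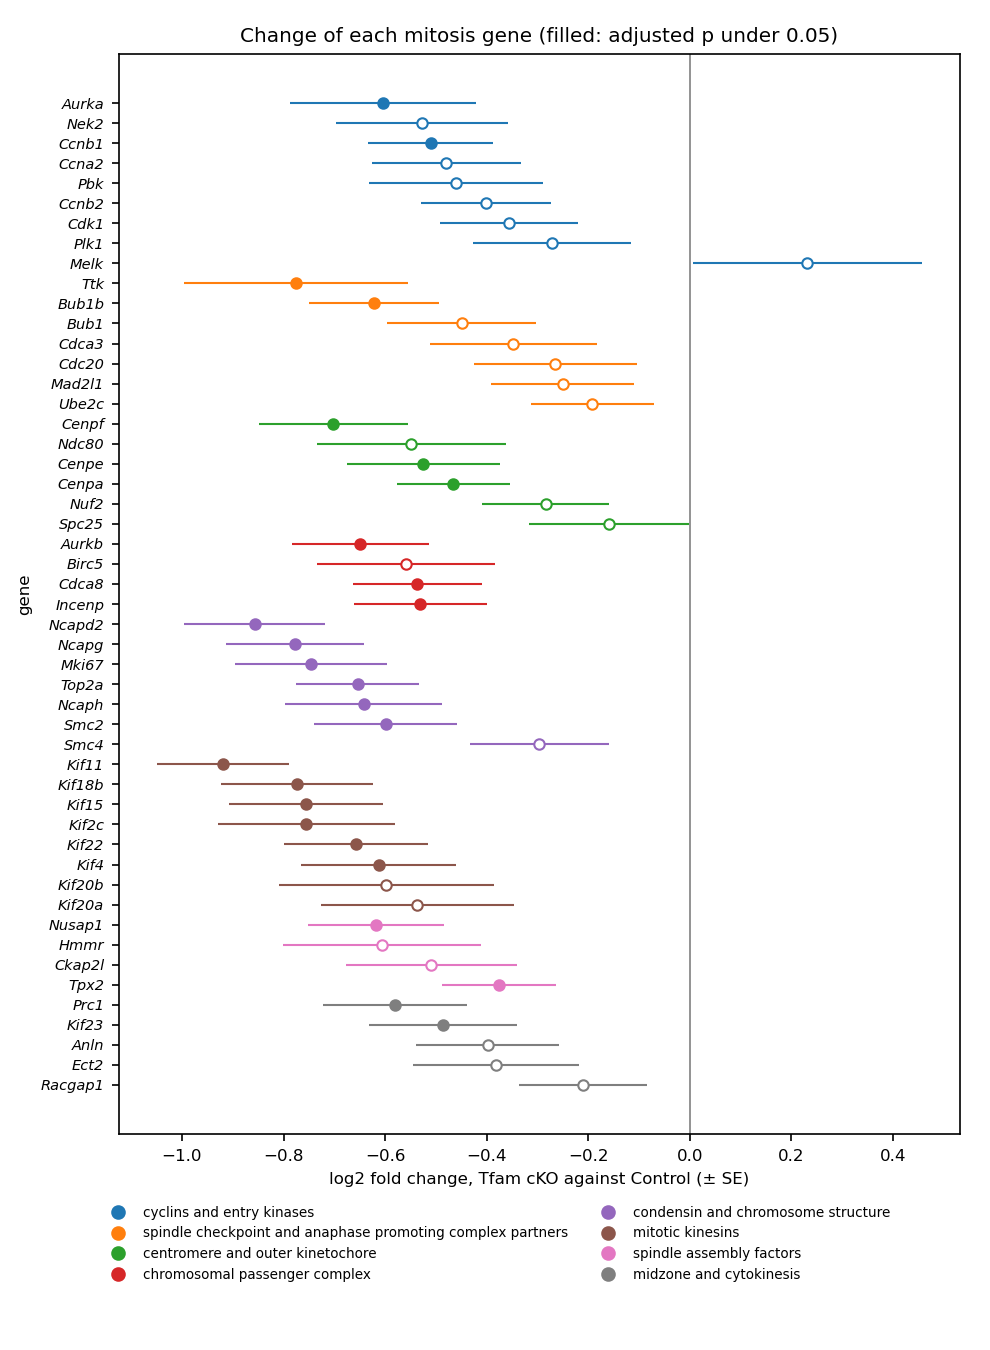
Log2 fold change of each mitosis gene, Tfam cKO against Control, with its standard error (3 libraries per group), coloured by role and filled where the limma adjusted p is under 0.05. Values run from -0.92 for Kif11 to 0.23 for Melk, and 26 of the 50 points are filled.

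Among the 9 cyclins and kinases of mitotic entry, 2 fell and 7 did not pass, and the median log2 fold change was -0.46. Ccnb1, cyclin B1, the partner that activates Cdk1, had 251, 196 and 223 normalized reads in the Control libraries and 141, 166 and 162 in Tfam cKO. Every Tfam cKO library was below every Control library, and the change was -0.51 ± 0.12 on the log2 scale (SE, adjusted p = 0.0173). It missed the threshold without Control 1 (0.0956), without Control 3 (0.0632) and without Tfam cKO 1 (0.0681). Aurka, the centrosomal Aurora kinase that matures spindle poles, was at 119, 103 and 122 in Control and 54.1, 90.4 and 85.7 in Tfam cKO. Its Control values lay close together while Tfam cKO 1 was far below the other 2 Tfam cKO libraries. The change of -0.60 ± 0.18 passed narrowly (adjusted p = 0.0492), missed when any 1 library other than Tfam cKO 2 was left out (0.0644 to 0.160), and missed with DESeq2 (0.106).

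Melk, a kinase of dividing progenitor cells, was at 51.2, 28.1 and 43.8 normalized reads in Control and 43.3, 44.2 and 53.96 in Tfam cKO. The groups overlapped, the lowest value being that of Control 2 (0.23 ± 0.23, adjusted p = 0.556), and without that library the change was -0.013. Cdk1 itself was at 181 ± 18.9 in Control and 142 ± 21.9 in Tfam cKO (SD, n = 3 each), with a change of -0.36 that did not pass in limma (adjusted p = 0.109). Ccna2, cyclin A2, which acts in S phase and early mitosis, had 490.2, 405 and 364 in Control and 249.95, 368 and 289 in Tfam cKO, where Tfam cKO 2 reached into the Control range. With -0.48 ± 0.15 it lay at the threshold (adjusted p = 0.051 in limma, 0.0419 in DESeq2 and 0.0635 in edgeR). Cyclin B2 (Ccnb2, -0.40) and the centrosome kinase Nek2 (-0.53) had groups that did not overlap and adjusted p-values of 0.059 and 0.0602. For Nek2, however, Control 3 (90.5) and Tfam cKO 2 (90.4) were nearly equal. The polo kinase Plk1 (-0.27, adjusted p = 0.284) and the mitotic kinase Pbk (-0.46, adjusted p = 0.101) did not pass.

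Of 7 genes of the spindle checkpoint and of the partners of the anaphase promoting complex, 2 fell, and both belong to the checkpoint. Bub1b encodes BubR1, a checkpoint protein that holds back the complex. Its Control libraries held 219.98, 168 and 186 normalized reads and its Tfam cKO libraries 122, 134 and 114, and the groups did not overlap. The change of -0.62 ± 0.13 (adjusted p = 0.00748) held without any 1 library. Ttk, the checkpoint kinase Mps1, had few reads, 53.2, 63.7 and 48.7 in Control and 33.5, 40.5 and 23.3 in Tfam cKO. Without overlap it fell by 0.78 ± 0.22 on the log2 scale (adjusted p = 0.0375), which missed when any 1 library other than Tfam cKO 2 was left out (0.0669 to 0.126) and with DESeq2 (0.124).

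The other 5 genes of this role did not pass. Ube2c, the ubiquitin-conjugating enzyme of the anaphase promoting complex, was at 240.1, 236 and 196 in Control and 176, 217 and 195 in Tfam cKO. Tfam cKO 2 lay above Control 3, and the change was -0.19 ± 0.12 (adjusted p = 0.335). The complex's activator Cdc20 was at 83.9% of the Control mean (-0.26, adjusted p = 0.317) and Cdca3, a trigger of mitotic entry, at 78.4% (-0.35, adjusted p = 0.193). The checkpoint gene Mad2l1 (-0.25, adjusted p = 0.278) did not pass, nor did Bub1 (-0.45, adjusted p = 0.0657), whose groups did not overlap.

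At the centromere and outer kinetochore, 3 of 6 genes fell and the median was -0.49. Cenpf, a large kinetochore protein of G2 and mitosis, had 341, 239.8 and 244 normalized reads in Control and 157, 192 and 152 in Tfam cKO. Control 1 was well above the other Control libraries, yet the change of -0.70 ± 0.15 (adjusted p = 0.00808) also held without it (0.0425). Cenpa, the histone H3 variant that marks centromeres, was at 156, 153 and 151 in Control and 116, 106 and 110.04 in Tfam cKO, with libraries of a group close together. Its change was -0.47 ± 0.11 (adjusted p = 0.0166), and the call ended without Control 1, Control 3 or Tfam cKO 3 (0.0682, 0.0510 and 0.0524) and with DESeq2 (0.0911). The kinetochore motor Cenpe also fell (-0.52, adjusted p = 0.0397), but missed when any 1 library other than Tfam cKO 2 was left out (0.0630 to 0.164), and missed with DESeq2 (0.0661).

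The NDC80 complex, which grips microtubule ends, gave 3 genes without a call. Spc25 was at 81.4, 66.5 and 63.7 in Control and 56.3, 67.8 and 64.5 in Tfam cKO, overlapping groups with a change of -0.16 ± 0.16 (adjusted p = 0.562). Nuf2 was at 114 ± 1.83 and 94.03 ± 9.14 (SD, n = 3 each), without overlap but with a change of -0.28 (adjusted p = 0.167). For Ndc80 the change was -0.55 (adjusted p = 0.0739), with Tfam cKO 2 just above Control 2.

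The chromosomal passenger complex, which corrects faulty attachments and later directs cytokinesis, gave 3 falls among its 4 genes. Aurkb, its kinase, had 156, 130.2 and 137 normalized reads in Control and 81.2, 103 and 85.7 in Tfam cKO. The groups were separate, and the change of -0.65 ± 0.13 (adjusted p = 0.00775) held without any 1 library. Cdca8, borealin, which docks the complex on chromosomes, was at 192, 161 and 159 in Control and 108, 132 and 112 in Tfam cKO. It fell without overlap (-0.54 ± 0.13, adjusted p = 0.0158), and lost the call without Control 1, Tfam cKO 1 or Tfam cKO 3 (0.0889, 0.0593 and 0.0606). The scaffold Incenp changed by -0.53 (adjusted p = 0.0197), which missed without Control 1, Control 2, Tfam cKO 1 or Tfam cKO 3 (0.0620 to 0.102). Birc5, survivin, was at 227, 199.5 and 171 in Control and 107, 179.8 and 125 in Tfam cKO. Here Tfam cKO 2 exceeded Control 3, and the similar change of -0.56 ± 0.17 did not pass (adjusted p = 0.055).

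Condensin and chromosome structure genes fell in 6 of 7 cases, with a median of -0.65. Ncapd2, a regulatory subunit of condensin I, had 688, 546 and 501 normalized reads in Control and 277, 376 and 304 in Tfam cKO. The groups did not overlap, and the Tfam cKO mean was 55.1% of Control (-0.86 ± 0.14 SE, adjusted p = 0.0019). Ncapg, another subunit of condensin I, was at 156, 124 and 139 in Control and 72.5, 87.6 and 82.5 in Tfam cKO. It fell to 57.95% (-0.78 ± 0.14, adjusted p = 0.00293), and both calls held without any 1 library. Ncapg shares 770 of its 3698 exon bases with Lcorl on the opposite strand. The third subunit, Ncaph, fell by 0.64 on the log2 scale (adjusted p = 0.0169), but not without Control 1 or Tfam cKO 1 (0.0961 and 0.0653).

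Of the ATPase subunits of condensin, Smc2 passed and Smc4 did not. Smc2 was at 409, 299 and 319 in Control and 189, 252 and 234 in Tfam cKO and fell (-0.60, adjusted p = 0.0144), except without Control 1 or Tfam cKO 1 (0.0816 and 0.0566). Smc4 was at 599, 512 and 501 in Control and 348, 510.2 and 467 in Tfam cKO, with Tfam cKO 2 inside the Control range (-0.30 ± 0.14, adjusted p = 0.184). The difference between the changes of Smc2 and Smc4 was not tested. Top2a, the topoisomerase that untangles sister chromatids, had 1167, 914 and 943 in Control and 611, 729.6 and 578 in Tfam cKO, and Mki67, the coat protein of mitotic chromosomes known as Ki-67, 2886, 2225 and 2096 in Control and 1247, 1743 and 1311 in Tfam cKO. In neither did the groups overlap, with Tfam cKO means of 63.4% and 59.7% of Control. Top2a changed by -0.65 (adjusted p = 0.00432) and Mki67 by -0.75 (adjusted p = 0.00634), and both held without any 1 library.

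The mitotic kinesins had the lowest median of the 8 roles, -0.71, and 6 of 8 fell. Kif11, the motor Eg5 that pushes spindle poles apart, had 404, 313 and 292 normalized reads in Control and 184, 185 and 159.8 in Tfam cKO. The groups did not overlap, and the mean fell to 52.3% of Control (-0.92 ± 0.13 SE, adjusted p = 0.000852). Kif18b, which shortens astral microtubules, was at 112, 93.7 and 86.5 in Control and 54.1, 61.2 and 53.96 in Tfam cKO. Every Tfam cKO value was under every Control value (-0.77 ± 0.15, adjusted p = 0.00531). Kif15, which backs up Kif11, fell alongside (-0.76, adjusted p = 0.00634), and these 3 calls held without any 1 library.

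The chromosome motors Kif22 (-0.66, adjusted p = 0.00938) and Kif4 (-0.61, adjusted p = 0.0201) and the microtubule depolymerase Kif2c (-0.76, adjusted p = 0.0138) fell too. Kif22 lost its call without Control 1 (0.0594), Kif4 without Control 1, Tfam cKO 1 or Tfam cKO 3 (0.108, 0.0761 and 0.0671), and Kif2c without Control 1, Control 3 or Tfam cKO 3 (0.0751, 0.0558 and 0.0600). Kif20b, a motor of late cytokinesis, was at 98.4, 51.5 and 74.6 in Control and 45.4, 51.8 and 45.5 in Tfam cKO, where Control 2 and Tfam cKO 2 were nearly equal. Its change of -0.60 ± 0.21 did not pass (adjusted p = 0.0863). Kif20a, which carries the passenger complex to the midzone, was likewise without a call (-0.54, adjusted p = 0.0862), and its exons overlap those of Cdc23 (1115 of 3905 bases) and Brd8 (187 bases) on the opposite strand, so reads of those genes may be mixed. The same holds for Ccna2 and Exosc9 (378 of 2811 bases), Nusap1 and Oip5 (208 of 2960 bases) and Cdc20 and Elovl1 (16 of 1784 bases).

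Of 4 spindle assembly factors, 2 fell, and in all 4 the groups did not overlap. Nusap1, which binds and bundles spindle microtubules, had 253, 187 and 209.9 normalized reads in Control and 124, 152 and 145 in Tfam cKO. It fell by 0.62 ± 0.13 on the log2 scale (adjusted p = 0.00943), a call lost without Control 1 (0.0572). Tpx2, the activator of Aurka at the spindle, was at 286, 244 and 241 in Control and 186, 216 and 192 in Tfam cKO. The spread was small and so was the change, -0.38 ± 0.11 (adjusted p = 0.0467), and it missed when any 1 library other than Tfam cKO 2 was left out (0.0707 to 0.197), and with edgeR (0.057) or DESeq2 (0.12). Ckap2l, a spindle pole protein, was at 139.6, 105 and 116 in Control and 66.01, 99.8 and 88.9 in Tfam cKO. Tfam cKO 1 was the lowest and Tfam cKO 2 close under Control 2, with a change of -0.51 ± 0.17 (adjusted p = 0.0687). Hmmr, a hyaluronan receptor that also acts at spindle poles, had a change of -0.61 that did not pass (adjusted p = 0.0612), and Control 1 at 173 stood far above the other Control libraries at 96.5 and 110.4.

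Among 5 genes of the spindle midzone and cytokinesis, 2 fell. Prc1, the bundler of midzone microtubules, had 290.3, 199.5 and 211 normalized reads in Control and 166, 146 and 150.2 in Tfam cKO. Control 1 was high, the other Control libraries still exceeded all of Tfam cKO, and the change was -0.58 ± 0.14 (adjusted p = 0.018), with the call lost without Control 1, Tfam cKO 2 or Tfam cKO 3 (0.0820, 0.0503 and 0.0627). Kif23, the kinesin of centralspindlin, was at 172, 137 and 157 in Control and 90.9, 127 and 115 in Tfam cKO. It fell without overlap (-0.49 ± 0.15, adjusted p = 0.0468), but the call ended without Control 1, Control 3, Tfam cKO 1 or Tfam cKO 3 (0.0900 to 0.188) and with DESeq2 (0.117). Racgap1, its partner in centralspindlin, was at 219.98, 177 and 193 in Control and 151, 191 and 167 in Tfam cKO. Its groups overlapped and its change of -0.21 ± 0.13 did not pass (adjusted p = 0.307). The contractile ring scaffold Anln (-0.40, adjusted p = 0.0859) and the RhoA activator Ect2 (-0.38, adjusted p = 0.156) did not pass either.

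Per exon length, the genes covered a wide range of levels. In Control, Ube2c (153 RPKM, reads scaled by exon length and library size), Mki67 (151) and Top2a (123) were the highest by this measure, and Kif20b (8.57), Melk (8.98) and Ttk (11.2) the lowest. In Tfam cKO the levels were 135 for Ube2c, 91.5 for Mki67 and 78.8 for Top2a, so Ube2c and Mki67, close together in Control, were further apart. By the Control mean of normalized reads, not divided by exon length, the median change was nearly the same at high and low levels. Among the 25 genes with the higher Control means 17 fell and the median log2 fold change was -0.54, and among the other 25 genes 9 fell, with a median of -0.53. The median standard error was 0.14 in the first and 0.16 in the second.

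Exon length went with a small shift in the medians and with more falls among longer genes. The 25 genes with exons of 931 to 3117 bases had a median log2 fold change of -0.47 and 11 falls, and the 25 with 3137 to 11122 bases had -0.60 and 15 falls. Over all tested genes the medians were 0.04 up to the median exon length and -0.02 above it. Of these, 310 of 7221 shorter genes and 558 of 7217 longer genes fell. After a smooth trend on exon length had been taken out of every library, the medians of the shorter and longer mitosis genes were -0.49 and -0.55, with 12 and 13 falls. In that fit 5.77% of all tested genes fell, 326 of the shorter and 507 of the longer.

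Other genes of the pathway came from 8 lists drawn up with earlier results of these data known, and the share that fell ranged from 5.88% to 66.7% by list. Of 24 regulators of mitotic entry and cell cycle transcription factors, 9 fell and 0 rose in limma, and the median log2 fold change was -0.41. Cdc25b, the phosphatase that activates Cdk1, was at 507, 455 and 365 normalized reads in Control and 226, 277 and 203 in Tfam cKO, without overlap (-0.91, adjusted p = 0.00156). Ccnf, cyclin F, also fell (-0.77, adjusted p = 0.00286), while Mastl, the Greatwall kinase, had the highest value (0.31, adjusted p = 0.423). Mybl2 and Foxm1, transcription factors that bind MuvB, were picked after their values were seen, and their changes were not tested against each other. Mybl2, B-Myb, fell from 164 ± 28.9 to 92.4 ± 23.1 (-0.83, adjusted p = 0.00895, but 0.0586 without Control 1), and Foxm1 was at 131, 105 and 84.5 in Control and 62.8, 116 and 71.9 in Tfam cKO, with Tfam cKO 2 inside the Control range (-0.38, adjusted p = 0.289).

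The anaphase promoting complex itself, whose core is expressed in most cells, was near Control. Of 17 of its subunits and partners 1 fell and 0 rose, which is 5.88% against 6.01% of all tested genes, and the median was -0.04. The 1 gene was Fbxo5, the inhibitor Emi1, at 154, 117 and 82.6 in Control and 56.3, 66.8 and 62.4 in Tfam cKO (-0.88, adjusted p = 0.0115). Its groups did not overlap, but Control 1 was the highest and the call ended without it (0.0631). The coactivator Fzr1 (-0.51, adjusted p = 0.0574) and the subunit Cdc16 (0.23, adjusted p = 0.207) did not pass.

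Of 32 other kinetochore, centromere and checkpoint genes, 2 fell, close to the background share, although 31 had negative values and the median was -0.42. Casc5, the kinetochore scaffold KNL1, fell from 116 ± 22.6 to 57.9 ± 16.2 (-1.01, adjusted p = 0.00679). Kntc1, of the checkpoint's RZZ complex, fell as well (-0.49, adjusted p = 0.0283), but missed without Control 1, Control 3, Tfam cKO 1 or Tfam cKO 3 (0.0740 to 0.115) and with DESeq2 (0.139), and Mad1l1, a checkpoint protein, was at 0.10 (adjusted p = 0.725). Among 16 cohesin and separation genes 3 fell and the median was -0.30. Esco2, which acetylates cohesin in S phase, was at 97.4, 83.4 and 88.5 in Control and 41.1, 38.6 and 44.4 in Tfam cKO, without overlap (-1.10, adjusted p = 0.000717). Espl1, separase, fell (-0.64, adjusted p = 0.00987, but 0.0564 without Control 1). Its inhibitor Pttg1, securin, had 33.1, 56.2 and 40.8 normalized reads in Control and 62.8, 80.02 and 55.02 in Tfam cKO, the opposite direction, with overlapping groups (0.61, adjusted p = 0.0839). Without Control 2 it passed (0.0363). The 3 genes of condensin II included Ncapd3 (-0.75, adjusted p = 0.00686) and Ncapg2 (-0.79, adjusted p = 0.0119, but 0.0743 without Control 1 and 0.0519 without Tfam cKO 3), which fell, and Ncaph2 (-0.32, adjusted p = 0.0704). Of its 3343 exon bases, Ncaph2 shares 829 with Sco2 and 535 with Tymp on the opposite strand.

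Of 32 other spindle, centrosome and cytokinesis genes, 15 fell and 1 rose, with a median of -0.55. Aspm, a spindle pole protein, fell from 174 ± 43.6 to 82.99 ± 7.22 (-1.03, adjusted p = 0.002), and the kinetochore microtubule protein Dlgap5 fell by 0.70 on the log2 scale (adjusted p = 0.00647). The rise was in Fam64a, a mitotic regulator, at 15.1, 16.9 and 15.9 normalized reads in Control and 38.95, 34.8 and 32.8 in Tfam cKO. Each group was tight and the Tfam cKO mean was 223% of Control, on few reads (1.11 ± 0.22 SE, adjusted p = 0.00675), and the call held without any 1 library (highest adjusted p = 0.0315).

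Genes of DNA replication, which act before mitosis in the same cycle, were lower as well, with 18 of 40 falling and 0 rising in limma, a median of -0.49 and summed levels of 8728, 7421 and 7501 in Control and 4713, 6289 and 5233 in Tfam cKO. The licensing factor Cdc6 (-1.13, adjusted p = 0.000838) and the helicase subunit Mcm7 (-0.64, adjusted p = 0.0037) had the smallest p-values, and Pold2, a polymerase subunit, was at 0.06 (adjusted p = 0.86). Of 16 genes of G1, 5 fell and 3 rose. The 3 that rose were Ccnd1, cyclin D1, from 94.8 ± 13.7 to 528 ± 94.8 normalized reads (2.46, adjusted p = 1.10e-06), the cyclin-dependent kinase inhibitor Cdkn1a (1.42, adjusted p = 2.86e-05) and Ccnd2, cyclin D2 (0.77, adjusted p = 0.000699), and these calls held without any 1 library. The lowest value was that of Ccne2, cyclin E2, at 40.2, 31.8 and 33.8 normalized reads in Control and 14.1, 16.9 and 24.3 in Tfam cKO, without overlap. Its change of -0.93 (adjusted p = 0.0307) passed with Tfam cKO 3 left out but with none of the other libraries left out (0.0584 to 0.138), and missed with DESeq2 (0.131). Ccne2 shares 1734 of its 3217 exon bases with Ints8 on the opposite strand, so reads of these genes may be mixed. Ccne1, cyclin E1, fell by 0.79 on the log2 scale (adjusted p = 0.00206), a change that passed whichever library was left out. The other falls were in Rb1, the retinoblastoma protein (-0.64, adjusted p = 0.0249), the inhibitor Cdkn2c (-0.55, adjusted p = 0.0483) and Ccnd3, cyclin D3 (-0.48, adjusted p = 0.0207). Cdkn2c missed whichever library was left out (0.0605 to 0.127), and with DESeq2 (0.266). Rb1 missed without Control 1 (0.131), Control 3 (0.0521), Tfam cKO 1 (0.0934) or Tfam cKO 3 (0.0900), and Ccnd3 without Control 1 (0.112), Control 2 (0.0560), Tfam cKO 1 (0.0536) or Tfam cKO 3 (0.0845). Ccnd3 shares 358 of its 2260 exon bases with Bysl on the opposite strand. Of these G1 genes, Ccnd2, Ccnd3, Ccne1, Cdkn2c and Rb1 were picked after their values were seen. Whether the lists differ from each other was not tested.

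**Figure D4:**
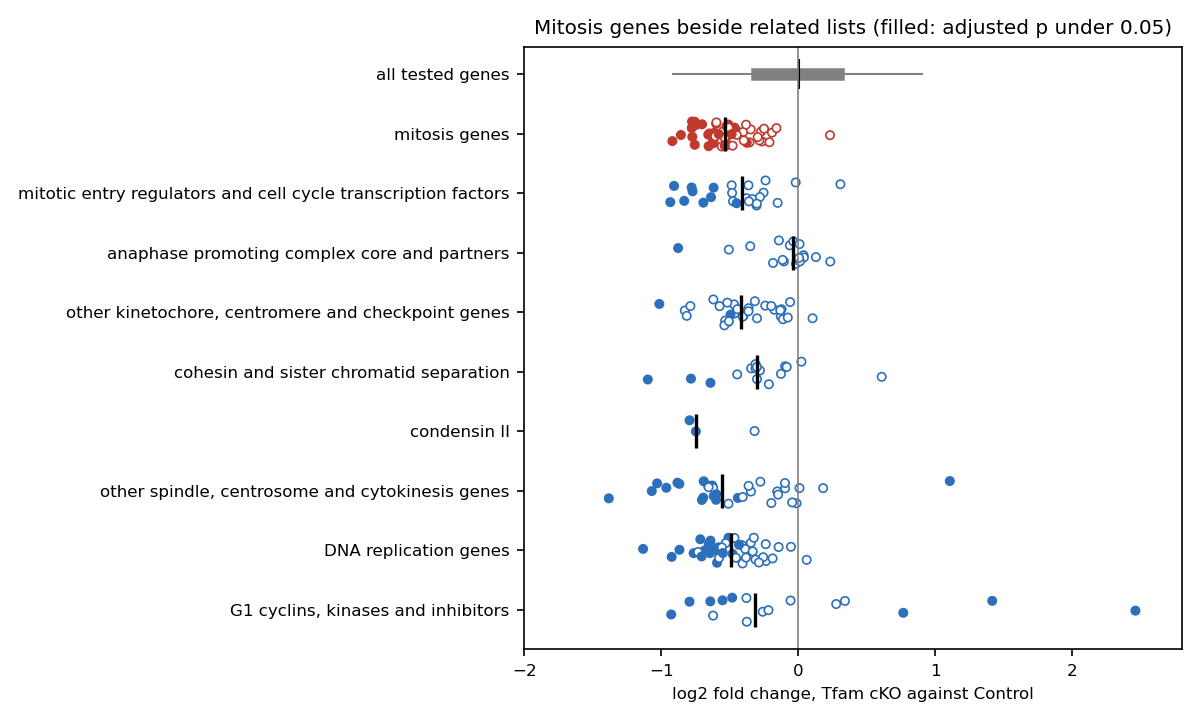
Log2 fold change, Tfam cKO against Control, of each gene in the mitosis list (red) and in 8 related lists (blue), filled where the limma adjusted p is under 0.05; vertical bars are medians, and for all 14438 tested genes the thick and thin lines span the middle 50% and 90%. The mitosis median is -0.53 and that of the anaphase promoting complex -0.04.

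Of the markers of blood-forming cells, those of the B lymphoid list all fell, and fewer of the other lists passed. All 14 B lymphoid markers fell, with summed levels of 1109.9, 968 and 773 normalized reads in Control and 157, 281 and 152 in Tfam cKO. Like the mitosis sum, the B lymphoid sum was highest in Control 1 and, within Tfam cKO, in Tfam cKO 2. The same held for the erythroid, megakaryocyte and DNA replication sums, while the neutrophil sum was highest in Control 2 and Tfam cKO 2. Defining genes of the B lymphoid list include Rag1 (-4.19, adjusted p = 4.45e-05), and Vpreb2, picked after its values were seen, was at 0 in every Tfam cKO library. Vpreb2 was already low in Control, at 6.03, 4.68 and 3.98 normalized reads (15 reads in all). Of 13 neutrophil markers 4 fell, led by Cebpe (-1.01), with sums of 9896 to 12438 in Control and 6695 to 10381 in Tfam cKO. Of 10 erythroid markers tested (12 of 14 present in the table) 6 fell, with sums of 11221 to 17833 and 9394 to 15146 and with Hba-a1 and Hba-a2, picked likewise, listed at 0 in all libraries. The neutrophil and erythroid sums overlapped between the groups, while the median log2 fold changes of the 2 lists were -0.44 and -0.61. A large part of the erythroid sum was Beta-s (Hbb-bs), picked likewise. It was at 8165, 8319 and 4131 normalized reads in Control and 5077, 7876 and 7640 in Tfam cKO (0.04, limma adjusted p = 0.936). Of 6 megakaryocyte markers 2 fell, with a median of -0.82 and sums of 546 to 967 and 359 to 649, which also overlap. The part of these cells in the lower mitosis genes was not tested.

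Markers of other cell types differed by list. In the endothelial and osteoclast lists only 1 marker passed, and in the T lymphoid and skeletal muscle lists 0 did. Over all tested genes 6.42% rose and 6.01% fell. Of 8 macrophage markers tested 4 rose and 1 fell, with C1qb at 0.87 and sums of 2151 to 2397 in Control and 2432 to 2681 in Tfam cKO. Of 8 endothelial markers 1 rose, Emcn (0.70), with sums of 1273 to 1297 and 1279 to 1444, and of 7 osteoclast markers 1 rose, Mmp9 (0.70), with sums of 12073 to 13447 and 14784 to 18849. T lymphoid markers were low, with sums over the list of 27.1 to 37.8 in Control and 27.1 to 33.9 in Tfam cKO, and of 4 tested 0 passed in limma (Zap70 at -0.95, adjusted p = 0.327). Of 11 cartilage markers 4 rose and 1 fell, Col11a2 (-1.36), which set the sums of 3545 to 3733 and 1940 to 2415. Of 5 hypertrophic cartilage markers 4 rose, with Col10a1 at 3.84 and sums of 674 to 851 and 1571 to 2436. Of 10 osteoblast markers 3 rose and 4 fell, with Bglap at -1.68 and sums of 151369 to 187501 and 86474 to 98817. Skeletal muscle markers, 8 in all with 0 passing in limma, varied from library to library, with sums of 1152 to 7103 in Control and 1234 to 10238 in Tfam cKO and Myh8 at 1.02. Control 1, with the highest mitosis sum, had the lowest muscle sum, and Tfam cKO 1, with the lowest mitosis sum, the highest. Other libraries did not follow this order. Tfam cKO 3 had a muscle sum of 1234 and a mitosis sum of 7804, both second lowest. Control 2 had 7103 and 11168, both second highest. The part of these cells in the mitosis values was not tested either.

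**Figure D5:**
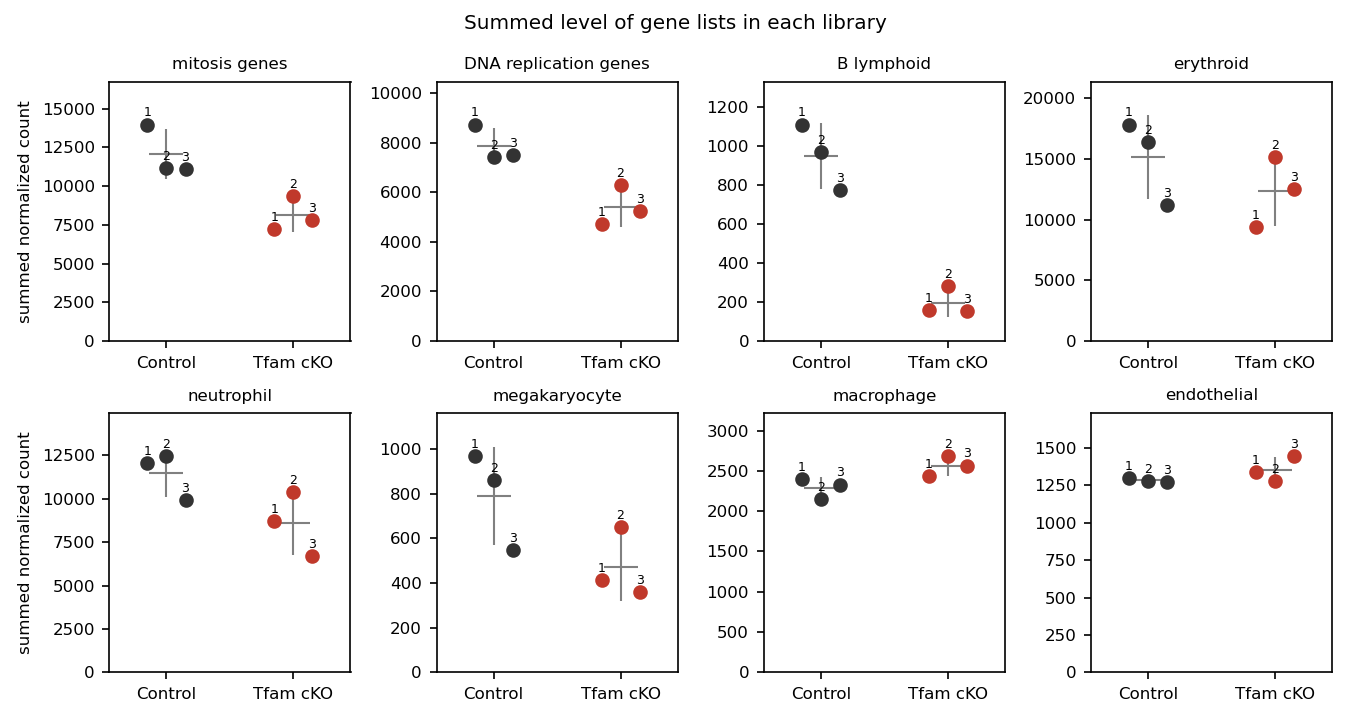
Summed normalized count of the 50 mitosis genes, of 40 DNA replication genes and of markers of 6 other cell types in each library, numbered by replicate; grey bars are the mean ± SD of 3 libraries. The mitosis sums are 11087 to 13970 in Control and 7234 to 9335 in Tfam cKO, and the B lymphoid sums are 773 to 1110 and 152 to 281.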

How the data were processed

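Poly(A)-selected directional libraries were made from 50 ng of total RNA (RNA integrity number over 6.7), per the labels' protocols. Per the submitters' processing notes, TopHat, Cufflinks and the build mm10 were used, with roles unstated. Which program counted reads, whether it used strand, and which test the authors ran are points not given in the sources used here, so reads of genes that overlap on opposite strands may be mixed. The authors deposited a signal per library, namely read counts divided by 1 size factor. Every library had 100% of its values at whole multiples of what 1 read is worth (tolerance 0.001), so reads were recovered. In Control replicates 1 and 3 that value is within 1% of 1, and the test for steps is weaker there. The authors also deposited a p-value and a q-value, of which the q-value was used.

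limma 3.58.1 in R 4.3.3, with a mean-variance trend and genotype as the only term, was fitted to log2(normalized count + 1) of the 14438 genes with a mean of at least 1 over the 6 libraries. Benjamini-Hochberg adjustment ran over all of them, with a threshold of 0.05. Fold changes are on this scale, which understates those of genes with few reads. edgeR 4.0.16 (quasi-likelihood, TMM) and DESeq2 1.42.0 were run on the recovered reads. Scripts were tested on simulated data. Levels per length used recovered reads. The members and lists were chosen with earlier results of these data known. In each role the 2 genes with the smallest p and the 1 with the largest are given per library, of each related list the 2 with the smallest p and the 1 with the largest opposite value, of each marker list the 1 with the smallest p (for the erythroid and megakaryocyte lists it is not reported here), always with Tfam and Cdkn1a. Other genes beyond the 50 were picked after their values were seen. Of the listed symbols, Wapal and Emr1 stand for Wapl and Adgre1 and Beta-s for Hbb-bs, and Sgol2a, Hbb-bt, Ahsp and Trac had no match. Promoter windows were from RefSeq, GRCm38.p6, the assembly of mm10. Figures were drawn with matplotlib. No libraries of a group agreed within sampling noise, by a chi-square of reads over genes.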

Additional observations from a re-analysis of the deposited data

How the results depend on the processing

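The median log2 fold change of the 50 mitosis genes was -0.53 and stayed between -0.54 and -0.51 under pseudocounts of 0.1 and 5, no filter or a stricter one (mean of 5), scaling by quantiles or by median ratios, removal of the exon length trend, a robust fit, the replicate block, edgeR and DESeq2. It was -0.64 to -0.42 with 1 library left out. Under all of these alternatives 0 of the 50 genes rose. The 26 falls numbered 19 (replicate block) to 34 (robust fit) under the same alternatives, 21 by the authors' q, and 10 to 32 with 1 library left out. All genes called, 1795, numbered 1140 with DESeq2, 2061 with the robust fit and 891 to 1807 with 1 library left out. The cause of these shifts was not tested. Melk, at 0.23, turned to -0.013 without Control replicate 2 and ranged up to 0.41 with another library left out. Deviations of same-numbered libraries from their group means correlated at -0.229, 0.01 and 0.087, and those of differently numbered libraries at -0.26 to 0.255. With 3 libraries per group, these values cannot decide whether replicate numbers pair the libraries. With the replicate block 19 mitosis genes and 1290 of all genes passed (4.18% of all genes fell), and the calls of Ccnb1, Aurka, Cenpe, Smc2, Kif4, Tpx2 and Kif23 ended. With a pseudocount of 0.1 the calls of Aurka (adjusted p = 0.06), Tpx2 (0.053) and Kif23 (0.0555) ended, as did that of Aurka with quantile scaling (0.0513) and those of Cenpe and Tpx2 without the length trend (both 0.0606). Depth, 1441152 to 1714770 reads per library, limits the genes with few reads, such as Melk and Ttk.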
